A study of Arabidopsis thaliana with 12 samples.

Results

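The 33 genes described here encode nuclear subunits of the photosynthetic electron transport chain of Arabidopsis thaliana: 12 genes of photosystem I, 11 of photosystem II, 1 of the cytochrome b6f complex, 6 for plastocyanin, ferredoxin and ferredoxin-NADP reductase (FNR), and 3 of the plastid ATP synthase. They were taken by gene identifier from a list fixed by function, which leaves out the light-harvesting antenna and Rubisco, and all 33 were found, of 20586 genes named in the deposited tables. RNA came from bulked seedlings of the ecotype Col-0, in 12 samples that form 4 groups of 3 replicates: untreated wild type, wild type with abscisic acid (ABA), untreated rbm25-1, and rbm25-1 with ABA. The mutant rbm25-1 is named for RBM25 (AT1G60200), which encodes an RNA-binding protein of the splicing machinery; the labels do not describe the allele. All groups grew on agar with sucrose for 2 weeks after 4 days of stratification, and the treated groups received a spray of 0.1 mM ABA 6 hours before harvest. The labels say of the untreated groups that nothing was applied, with no mock spray named, so that spraying and ABA cannot be told apart.

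The thylakoid chain carries electrons from water, split at photosystem II, through the cytochrome b6f complex and plastocyanin to photosystem I, and from there through ferredoxin and FNR to NADPH, while the ATP synthase uses the proton gradient that this flow builds. Reaction centre cores are encoded largely in the plastid genome, whereas the subunits treated here are nuclear genes whose proteins are imported into the chloroplast. ABA is the hormone of drought and seed dormancy, and lowered expression of nuclear photosynthesis genes is a well-known part of its action in leaves.

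The values are the authors' FPKM (fragments scaled to the transcript's length and to the fragments mapped), 1 value per gene and group. No value per sample was at hand, so no SD stands beside a level and the depth is unknown. A gene is called higher or lower where the authors' q, their p adjusted over all loci, was under 0.05, and the labels do not say whether replicates came from separate cultures, so that these p-values may measure technical spread. RBM25 itself had 27.9% of its wild-type level in untreated rbm25-1 and 15.8% with ABA. Among markers of other cell types, the summed level of the root markers went from 158 FPKM in untreated wild type to 68.5 FPKM with ABA, while that of 6 guard cell and epidermis markers went from 48.6 to 38.9 FPKM. These sums hold moves in both directions. Of the 6, 3 were lower and 1, KAT1, higher. Of 11 tested root markers, 9 were lower and 2 higher, and CASP1 alone went from 75.5 to 28.1 FPKM.

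The subunit genes were among the most abundant transcripts of untreated wild-type seedlings. Together they made up 5.93% of all listed FPKM, and 21 of the 33 were among the 100 loci with the highest level. PSBR (AT1G79040), for a small lumenal protein that helps the oxygen-evolving complex to assemble, was the highest at 7293 FPKM. At the other end stood PETE1 (AT1G76100), the minor gene for plastocyanin, the copper protein that carries electrons to photosystem I, at 236 FPKM, against a median of 9.64 FPKM over all loci listed. With ABA the 33 genes held 2.70% of the listed FPKM in wild type, and in rbm25-1 they held 6.48% untreated and 3.02% with ABA. The plot of levels by complex shows the groups with ABA to the left of the untreated groups for every gene.

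**Figure D1:**
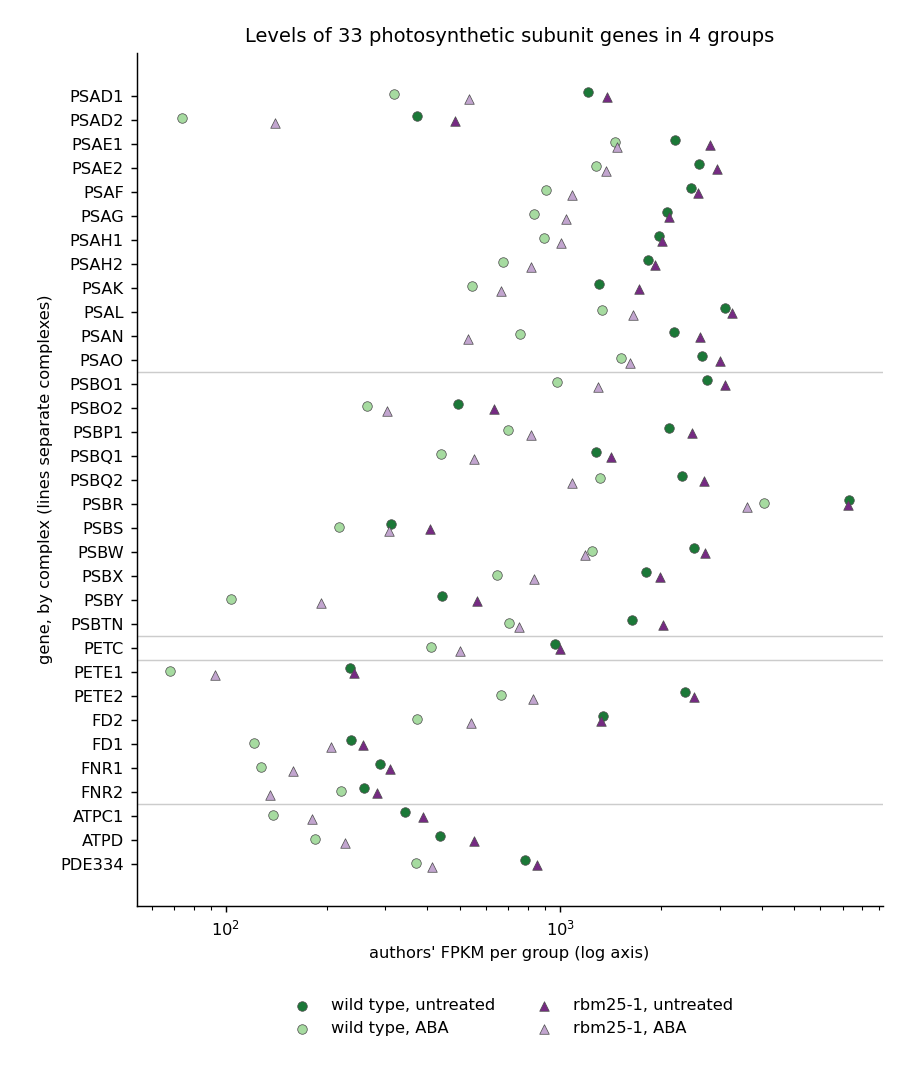
Authors' FPKM (log axis) of the 33 subunit genes in the 4 groups, 1 value per group; circles are wild type, triangles rbm25-1, dark colours untreated and light colours ABA. PSBR is the highest gene in every group (7293 FPKM in untreated wild type), and the light symbols lie to the left of the dark ones of the same genotype.

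Nearly the whole set was lower with ABA in wild type. Of 33 genes, 32 were lower and 0 higher by the authors' q (0 higher also by the Cuffdiff p before adjustment), where 30.1% of all 19647 loci tested were lower and 26% higher. Of the 32, 25 were at least 2-fold lower, where 11.5% of all loci were at least 2-fold lower and 11.6% higher. The median log2 fold change of the 33 genes was -1.24, beside -0.07 over all loci with a log2 value. FNR2 (AT1G20020) was the exception, and all 32 others share the smallest deposited p of 5e-05 and a q of 0.000132 in the authors' deposited table. In such bulk samples, fewer green cells and less RNA per green cell cannot be told apart. Senescence markers moved the other way, with 7 of 7 tested higher and a summed level that went from 1757 to 7332 FPKM, most of it from SAG21 alone (1582 to 6738 FPKM), and 9 of 11 tested root markers were lower and 2 higher, with none of either list at 0; their part in the result was not tested.

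Photosystem I was lowered in all 12 of its genes, with a median log2 of -1.29 over the authors' deposited values. The largest fall of all 33 was that of PSAD2 (AT1G03130), for the stromal subunit at which ferredoxin docks, from 372 to 73.9 FPKM, which is 19.9% of the untreated level (log2 -2.33 in the authors' deposited table). Its paralog PSAD1 (AT4G02770) fell from 1213 to 319 FPKM, or to 26.3% (log2 -1.93 in the authors' deposited table). PSAD thus had the lowest remaining levels of photosystem I in both of its copies. PSAE1 (AT4G28750), for another stromal subunit near the ferredoxin site, fell less than any other gene of the complex, from 2209 to 1455 FPKM, or to 65.9% (log2 -0.60 in the authors' deposited table). PSAE2 (AT2G20260) fell from 2608 to 1280 FPKM. PSAF (AT1G31330) and PSAN (AT5G64040) encode subunits on the lumenal side, where plastocyanin binds, and fell to 36.9% and 34.8% of the untreated level. PSAN, at 2184 FPKM untreated, was left at 760 FPKM. PSAF went from 2458 to 906 FPKM.

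The peripheral subunits of photosystem I took middle positions. PSAG (AT1G55670) and PSAK (AT1G30380), which flank the core and help to hold its antenna, fell to 40.0% and 41.8%, from 2079 to 832 FPKM and from 1308 to 546 FPKM. PSAH1 (AT3G16140), PSAH2 (AT1G52230), PSAL (AT4G12800) and PSAO (AT1G08380) form the side to which the mobile antenna docks. Of these PSAO fell least, from 2663 to 1523 FPKM, or to 57.2% (log2 -0.81 in the authors' deposited table). PSAL went from 3101 to 1336 FPKM, PSAH1 from 1972 to 894 FPKM and PSAH2 from 1824 to 672 FPKM.

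All 11 photosystem II genes were lower with ABA in wild type, 7 of them at least 2-fold. PSBY (AT1G67740), for a small membrane subunit, fell most in this complex, from 442 to 104 FPKM, or to 23.4% (log2 -2.09 in the authors' deposited table). Of the extrinsic proteins of the oxygen-evolving complex, PSBO1 (AT5G66570) went from 2738 to 975 FPKM, PSBP1 (AT1G06680) from 2108 to 698 FPKM and PSBQ1 (AT4G21280) from 1281 to 438 FPKM. These 3 genes were left at 33.1% to 35.6% of their untreated levels. PSBP1 is merged in the deposited tables with its neighbour AT1G06670, a helicase gene, so that its value holds both. The other copies fell less: PSBO2 (AT3G50820) from 493 to 264 FPKM, and PSBQ2 (AT4G05180) from 2305 to 1317 FPKM, with log2 -0.81 in the authors' deposited table. PSBS (AT1G44575), the sensor of lumenal acidity in photoprotective energy dissipation, fell from 311 to 218 FPKM, or to 70.2% (log2 -0.51 in the authors' deposited table). It was the smallest change among the genes called. PSBR fell to 55.7%, at 4066 FPKM. PSBW (AT2G30570), PSBX (AT2G06520) and PSBTN (AT3G21055), for small subunits, went from 2504 to 1247 FPKM, from 1803 to 646 FPKM and from 1634 to 705 FPKM.

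Between the photosystems and beyond them the changes were as broad. PETC (AT4G03280), for the Rieske iron-sulfur protein of the cytochrome b6f complex, fell from 964 to 412 FPKM. The soluble carriers and FNR as a group kept 33.3% of their summed level, where photosystem I kept 44.2%, photosystem II 46.6% and the ATP synthase 44.3%. Plastocyanin fell in both copies, PETE1 from 236 to 68.2 FPKM and PETE2 (AT1G20340) from 2359 to 665 FPKM, or to 28.2%, with log2 -1.83 in the authors' deposited table. FD2 (AT1G60950), the main leaf ferredoxin, fell from 1346 to 374 FPKM, or to 27.8% (log2 -1.85 in the authors' deposited table). FD1 (AT1G10960), the minor leaf ferredoxin, fell from 237 to 121 FPKM. FNR1 (AT5G66190) fell from 290 to 127 FPKM, whereas FNR2 went from 260 to 221 FPKM, 85.0% of the untreated level, with log2 -0.23 and q = 0.125 in the authors' deposited table. FNR2 was thus the member nearest to no change, although its deposited log2 was also below 0. Of the ATP synthase, ATPC1 (AT4G04640), for the gamma subunit, fell from 343 to 139 FPKM, ATPD (AT4G09650), for the delta subunit, from 436 to 185 FPKM, and PDE334 (AT4G32260), for a membrane subunit of the stalk, from 787 to 370 FPKM.

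**Figure D2:**
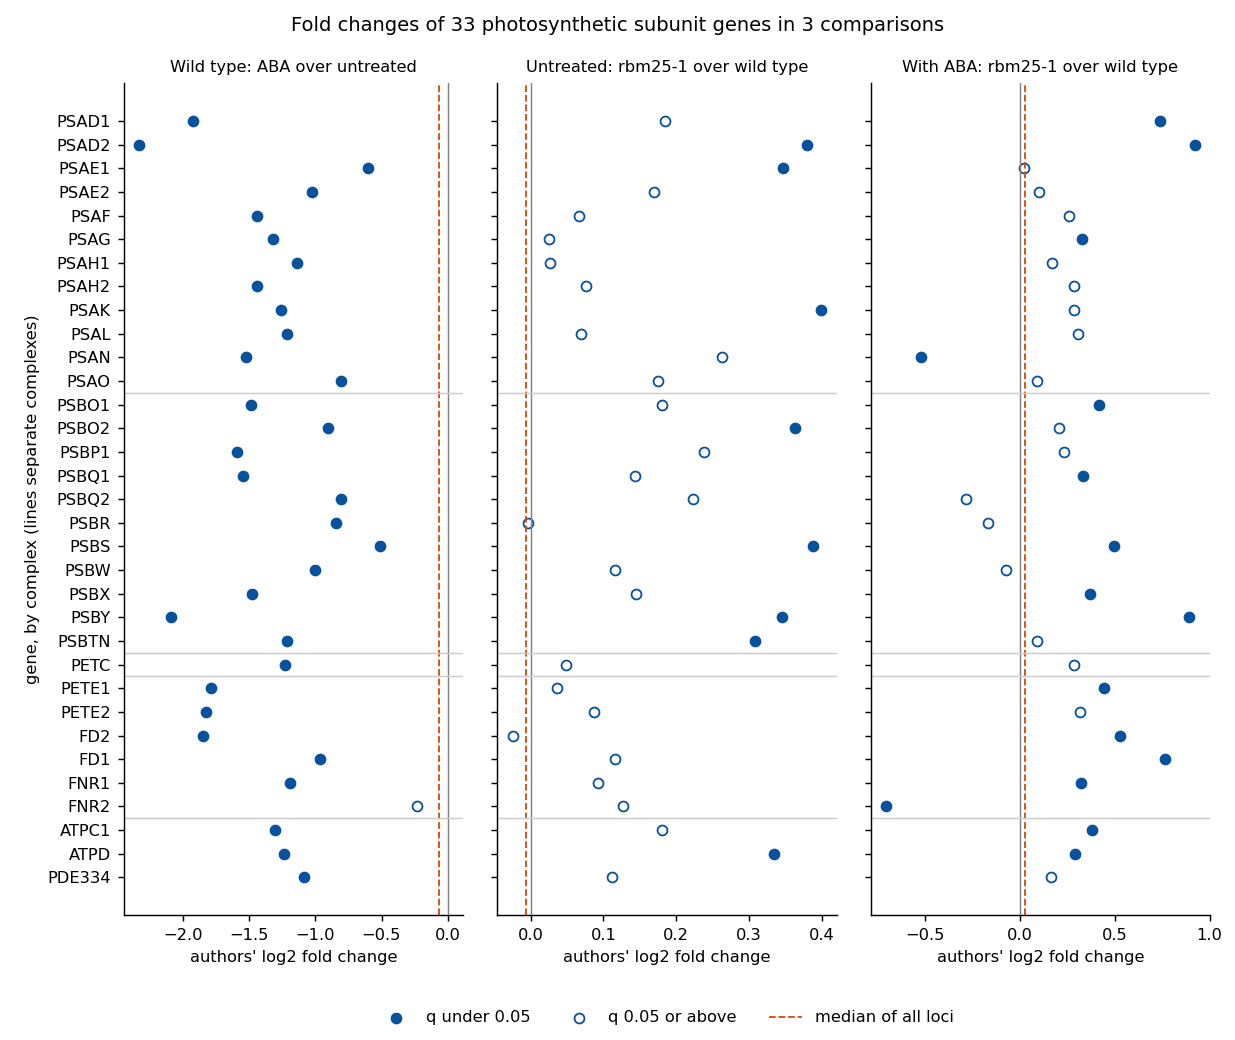
Authors' log2 fold changes of the 33 genes in the 3 comparisons, grouped by complex; filled points have a q under 0.05, open points do not, and the dashed line is the median of all loci. The horizontal scales differ between panels: values run from -2.33 to -0.23 with ABA in wild type, from -0.02 to 0.40 for untreated rbm25-1, and from -0.71 to 0.92 for rbm25-1 with ABA.

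Without ABA, the subunit genes stood slightly higher in rbm25-1 than in wild type. By the authors' q, 8 of 33 were higher and 0 lower (0 lower also by the Cuffdiff p before adjustment), where 6.15% of 19327 loci were higher and 7.2% lower. The deposited log2 was above 0 for 31 of the 33, with a median of 0.15, beside -0.01 over all loci. No member changed by 2-fold, where 0.735% of all loci were at least 2-fold higher and 0.673% lower. The 8 calls rest on the authors' adjustment across several comparisons: with the same p-values adjusted within this table alone, 0 of the 8 passed. Of 12 tested root markers 3 were higher and 1 lower, with a summed level of 158 FPKM in wild type and 163 FPKM in rbm25-1. IRT1, for an iron transporter of the root epidermis, stood highest among them, at 0.372 and 3.04 FPKM. Of 7 senescence markers 1 was higher and 1 lower, with sums of 1757 and 1464 FPKM, and of 6 guard cell and epidermis markers 0 were called (1 higher by the Cuffdiff p before adjustment), with sums of 48.6 and 51.3 FPKM. The part of these markers in the result was not tested.

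The genes called came from both photosystems and the ATP synthase. PSAK rose from 1308 to 1725 FPKM (log2 0.40, q = 0.0103 in the authors' deposited table). PSBS rose from 311 to 407 FPKM (log2 0.39, q = 0.00783 in the authors' deposited table), and PSAD2 from 372 to 484 FPKM (log2 0.38, q = 0.00783 in the authors' deposited table). These are rises of 1.32-fold or less. PSBO2 went from 493 to 634 FPKM (log2 0.36, q = 0.0158 in the authors' deposited table) and PSAE1 from 2209 to 2810 FPKM (log2 0.35, q = 0.0411 in the authors' deposited table). The other genes called were PSBY, from 442 to 562 FPKM, ATPD, from 436 to 550 FPKM, and PSBTN, from 1634 to 2023 FPKM. None of the 6 soluble carrier and FNR genes was called, and none of their unadjusted Cuffdiff p-values was under 0.05 (0 of 6). FD2, at 1346 and 1323 FPKM, and PSBR, at 7293 and 7274 FPKM, had the lowest log2 values, -0.02 and 0.00 to 2 decimals (q = 0.891 and 0.987 in the authors' deposited table). Next came PSAG, at 2079 and 2117 FPKM (log2 0.03, q = 0.892), PSAH1, at 1972 and 2008 FPKM (0.03, q = 0.888), and PETE1, at 236 and 242 FPKM (0.04, q = 0.826), in the authors' deposited table.

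With ABA, the difference between the genotypes was wider and had members on both sides. Of 33 genes, 14 were higher and 2 lower in rbm25-1 than in wild type, where 17.7% of 19244 loci were higher and 14.3% lower. The median log2 of the 33 was 0.29, beside 0.02 over all loci. None of the 16 reached 2-fold, where 1.3% of all loci were at least 2-fold higher and 1.79% lower. Adjusted within this table alone, 11 were higher and 2 lower. The summed level of 7 senescence markers was 7332 FPKM in wild type with ABA and 5517 FPKM in rbm25-1 with ABA, most of it from SAG21 alone (6738 and 4936 FPKM), with 1 of 7 higher and 1 lower, and that of the root markers 67.9 and 66.8 FPKM, with 2 of 9 tested higher and 0 lower (1 lower by the Cuffdiff p before adjustment); their part in the result was not tested.

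PSAD2 had the highest value, at 73.9 FPKM in wild type and 140 FPKM in rbm25-1, 1.90-fold (log2 0.92, q = 0.000132 in the authors' deposited table). PSBY stood at 104 and 192 FPKM, 1.85-fold (log2 0.89, q = 0.000132 in the authors' deposited table). FD1 stood at 121 and 206 FPKM, 1.70-fold (log2 0.76, q = 0.000132 in the authors' deposited table). PSAD1, at 319 and 533 FPKM, and FD2, at 374 and 540 FPKM, followed with 1.67-fold and 1.44-fold (log2 0.74 and 0.53, both with q = 0.000132 in the authors' deposited table). This comparison shares the wild type with ABA with the comparison of ABA and no treatment, so that their values are not independent. The other genes that rose were PSBS, from 218 to 308 FPKM, PETE1, from 68.2 to 92.8 FPKM, PSBO1, from 975 to 1300.0 FPKM, ATPC1, from 139 to 180.4 FPKM, PSBX, from 646 to 836 FPKM, PSBQ1, from 438 to 552 FPKM, PSAG, from 832 to 1044 FPKM, FNR1, from 127 to 159 FPKM, and ATPD, from 185 to 226 FPKM. The calls of PSAG, FNR1 and ATPD were the 3 lost with the adjustment within the table.

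FNR2 and PSAN went against the others. FNR2, for the FNR isoform that needs its partner FNR1 to bind to the thylakoid, stood at 221 FPKM in wild type and 135 FPKM in rbm25-1, 61.3% of wild type (log2 -0.71, q = 0.000132 in the authors' deposited table). PSAN stood at 760 and 529 FPKM, 69.7% of wild type (log2 -0.52, q = 0.000376 in the authors' deposited table). In untreated seedlings neither was called, and both had a deposited log2 above 0. PSAN overlaps AT5G64030 on the other strand in the annotation, so that reads of both may be mixed if they were counted without strand. PSBQ2 had the next lowest value, at 1317 and 1082 FPKM, with log2 -0.28 and q = 0.0754 in the authors' deposited table. PSBR, at 4066 and 3620 FPKM (log2 -0.17, q = 0.386), and PSBW, at 1247 and 1186 FPKM (log2 -0.07, q = 0.681), were the remaining members with a value below 0 in the authors' deposited table.

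**Figure D3:**
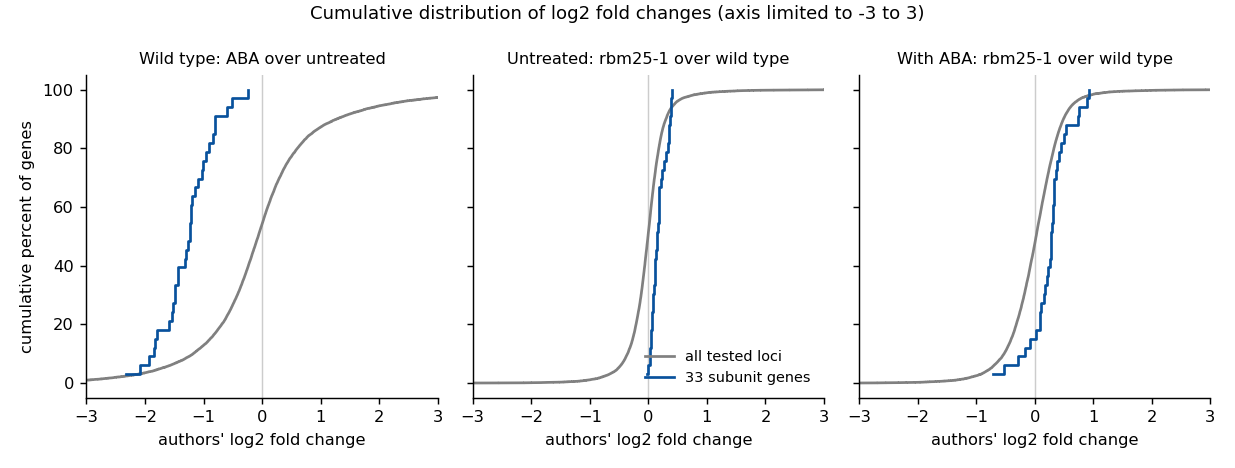
Cumulative percent of genes (vertical axis) up to each of the authors' log2 fold changes (horizontal axis, limited to -3 to 3) for the 33 subunit genes and for all loci with a log2 value, in the 3 comparisons. The medians of the 33 genes are -1.24, 0.15 and 0.29, beside -0.07, -0.01 and 0.02 for all loci.

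The tables do not compare both groups of rbm25-1 with each other, but the FPKM of each group are the same in every table that holds it, so that this response can be read as a ratio without a test. All 33 genes had a lower value with ABA in rbm25-1, with a median log2 of -1.23 beside -1.24 in wild type. The range ran from -2.31 for PSAN, which kept 20.2% of its untreated level, to -0.31 for FD1, which kept 80.5%. For 20 genes the response was less negative in rbm25-1 than in wild type, and for 13 more negative, with a median difference of 0.19. Of 5297 single-gene loci lower with ABA in wild type, 3393 had a higher log2 response in rbm25-1 and 1904 a lower one. Their median difference was 0.14, so that the members were near the share of these loci. Across the 33 genes the responses of both genotypes, which share no sample, had a Pearson r of 0.64 and a Spearman rho of 0.75. This is a description over genes of 1 pathway, which are not independent of each other.

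The genes that departed most from the wild-type response were few. FNR2 kept 85.0% of its level in wild type and 47.7% in rbm25-1, a difference in log2 response of -0.83. PSAN kept 34.8% and 20.2%, a difference of -0.79. FD1, in contrast, kept 51.3% in wild type and 80.5% in rbm25-1, a difference of 0.65. PSAD1, FD2, PSBY and PSAD2 each differed by 0.54 to 0.56 towards a smaller fall in rbm25-1, and PSBQ2 by -0.51 towards a larger one. At the other extreme PSBP1 kept 33.1% in wild type and 33% in rbm25-1. None of these differences could be tested, since each group has 1 value.

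**Figure D4:**
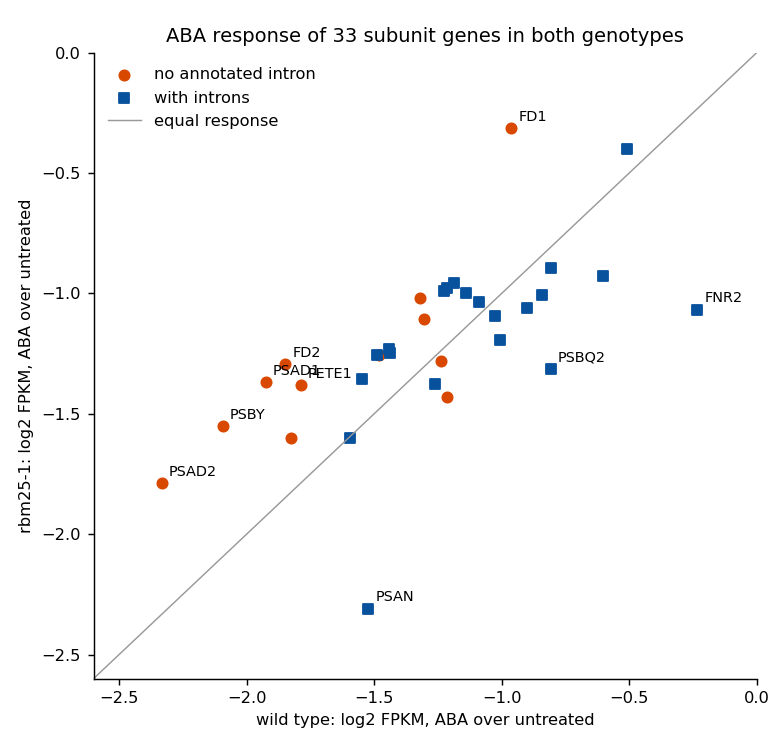
Log2 ratio of FPKM with ABA over untreated in wild type (horizontal) and in rbm25-1 (vertical) for the 33 genes; circles have no annotated intron, squares have introns, and the line marks equal responses. Genes that differ by more than 0.4 are named, with FD1 above the line and FNR2 and PSAN below it.

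In 8 cases a pair of paralogs encodes the same subunit, and the share of each copy is given here without a test. For FNR the copies were near parity in untreated wild type, with FNR1 at 52.8% of the summed FPKM, and FNR1 had 36.6% in wild type with ABA. In rbm25-1 FNR1 had 52.2% untreated and 54.0% with ABA, so that its share was not lower with ABA there. For ferredoxin the share of FD1 went from 15% to 24.5% in wild type and from 16.2% to 27.7% in rbm25-1. For PSBQ the share of PSBQ1 went from 35.7% to 25% in wild type, and from 34.5% to 33.8% in rbm25-1. For PSBO the share of PSBO1 went from 84.7% to 78.7% in wild type, and from 83% to 81.1% in rbm25-1. In PSAD, PSAE and PSAH the first copy gained with ABA in both genotypes, from 76.5% to 81.2%, from 45.9% to 53.2% and from 51.9% to 57.1% in wild type. For plastocyanin PETE1 stayed between 8.79% and 10.09% in the 4 groups.

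Reads shared between copies could blur such shares, so the likeness of the pairs was read from the reference. Coding sequences of the pairs were 75.0% (PETE) to 88.0% (PSAD) identical over the aligned bases, and 75.3% for FNR. The longest identical run between the annotated transcripts was 35 bases for PSAD and 17 bases for FNR and PETE. How the authors' programs treated reads with several matches is not given in the sources used here.

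**Figure D5:**
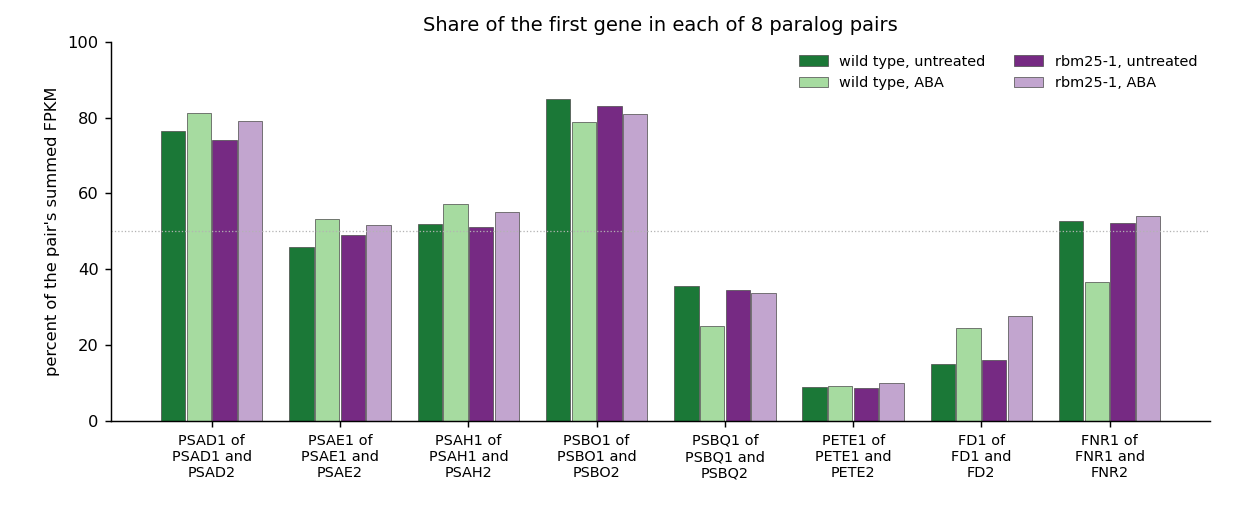
Share of the first named gene in the summed FPKM of each of 8 paralog pairs (percent), in the 4 groups, 1 value per bar and no error; the dotted line marks equal shares. The FNR1 bar is lower in wild type with ABA (36.6%) than in the other groups (52.2% to 54.0%).

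Gene structure, which the choice of genes did not use, was set beside the fold changes. The 33 genes were short, with a median transcript of 1064 bases beside 1703 over tested genes with an annotation, and 12 of them had no annotated intron. The 12 genes without introns had a median log2 of -1.63 with ABA in wild type, beside -0.14 over all 2954 tested intronless genes. The 21 genes with introns had a median of -1.14, beside -0.05 over 15133 such genes. Between rbm25-1 and wild type with ABA, 10 of the 12 intronless members were higher and 0 lower, with every log2 above 0, where 18.7% of all tested intronless genes were higher and 10.9% lower. Of the 21 members with introns, 4 were higher and 2, FNR2 and PSAN, lower, where 18.1% of all tested genes with introns were higher and 14.4% lower. With the adjustment within that table alone, the intronless PSAG and ATPD and the intron-containing FNR1 were no longer called. FNR2 has 8 annotated exons and PSAN 3. Both comparisons given so far share the wild type with ABA, so that their values are not independent. Between untreated rbm25-1 and untreated wild type the median log2 was 0.16 without introns and 0.14 with introns. For the ABA response of rbm25-1 the medians were -1.33 without introns and -1.07 with introns. The split by introns was looked at after the values were seen, and no test was made of it. Among the intronless members are both PSAD, both PETE and both FD genes, each a pair of copies. Across the 33 genes the number of exons and the wild-type response had a Spearman rho of 0.51 and a Pearson r of 0.51, as a description over genes that share samples.

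Splicing events were listed for only 5 of the 33 genes, FNR1, FNR2, PSAK, PSBP1 and PSBR, and none passed a threshold. Wild type with ABA against untreated had 4 events, all in FNR2, untreated rbm25-1 against wild type 10 events in 5 genes, and rbm25-1 with ABA against wild type 4 events, again all in FNR2. With the deposited p adjusted within each table, 0 of them passed, where 0.00952%, 0.0102% and 0.0179% of all events did. Before adjustment 1 event had a p under 0.05, in untreated rbm25-1, where 6.13% of all events did; in the other comparisons 4.83% and 6.4% of all events did, and 0 in members. The smallest adjusted p of a member was 0.688. The 6 introns listed as retained in members are not annotated as introns, though each shares an end with an annotated intron, so that retention there concerns a splice choice other than the annotated intron. How PSI and its p were computed, and whether that p calls both directions, is not given in the sources used here.

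The event with the unadjusted p of 0.0213 lies near the 5′ end of FNR2, and the competing splice sites are shown because FNR2 is the only member with events in all 3 tables. In untreated rbm25-1, 1 of 10 member events with such a p is too few to read against the 6.13% of all events. FNR2 lies on chromosome 1 on the plus strand. The annotated intron there runs from 6942956 to 6943227 (272 bases, in 2 of 3 annotated transcripts), and the tables list 2 further acceptors, 31 and 37 bases downstream. Each stretch below has 30 bases of the TAIR10.1 reference sequence from RefSeq, 5′ to 3′, with the AG that ends the intron in capitals.
annotated acceptor, chr1:6943208-6943237: ttgttgggtgtgtttaaaAGggtgcttttt
acceptor 31 bases downstream, chr1:6943239-6943268: ctacaaaagcaacaatgtAGtgacaggtaa
acceptor 37 bases downstream, chr1:6943245-6943274: aagcaacaatgtagtgacAGgtaaaagagt
Neither shift is a multiple of 3. Retention over the longest of these introns was 91.7% PSI (percent spliced in) in untreated wild type and 100% in untreated rbm25-1, a difference of 8.33 points in the authors' deposited table. Over the intron that ends 31 bases downstream, PSI was 79.6% in untreated wild type, 86.0% in wild type with ABA, 76.5% in untreated rbm25-1 and 100% in rbm25-1 with ABA, where each p of the authors' deposited tables was 0.287 or above before adjustment. The alternative acceptor event of the annotated junction was at 97%, 99.1%, 97.3% and 100% in the same order. Taken as the share of the annotated junction, these values leave it the main one in all groups, and no listed event of FNR2 passed after adjustment. The largest difference of any member was in PSBR, where an intron had 100% PSI in untreated wild type and 55.0% in untreated rbm25-1 with an unadjusted p of 0.9995 in the authors' deposited table. Both falls in PSI among the retention events of members, in FNR2 and PSBR, had unadjusted p-values near the upper limit, 0.966 and 0.9995 in the authors' deposited table. Whether this p can call a fall is not given in the sources used here, so that it does not speak against a difference in PSBR.

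Promoters of the 33 genes were searched over the 250 bases before the annotated transcript start, on both strands, for 7 short motifs known from plant promoters. Of the 33 windows, 17 hold annotated exons of a neighbouring gene, so that they are in part transcribed sequence. The G-box CACGTG was found in 6 of 33 (18.2%), beside 6.49% of 27443 promoters of the same length, and 5 of these 6 windows hold such exons. The core of the ABA-responsive element, ACGTG, which lies within each CACGTG, was found in 13 (39.4%), beside 22.9%. The I-box core GATAAG was found in 9 (27.3%), beside 12.3%. CCAAT, in 16 genes (48.5%, beside 46.0%), and CCAATC, which contains it, in 4 (12.1%, beside 10.2%), were near the share of all promoters. The telo-box core AAACCCT was found in 1 gene (3.03%, beside 7.33%) and the GCC-box AGCCGCC, known from ethylene-responsive genes, in 0 (beside 0.587%). A match is a description of the letters only.

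Shown are windows at both ends of the wild-type ABA response, and the one richest in ACGTG. PSBY has the strongest fall among genes whose window holds no annotated exon (that of PSAD2 overlaps an exon of AT1G03140), FNR2 the weakest, and PSBQ2, chosen after its matches were seen, has the most ACGTG matches. The letters are the TAIR10.1 sequence from RefSeq, 5′ to 3′ towards the start on the gene's strand, and capitals mark a match to any of the 7 motifs on either strand.
PSBY, minus strand, chr1:25395250-25395499: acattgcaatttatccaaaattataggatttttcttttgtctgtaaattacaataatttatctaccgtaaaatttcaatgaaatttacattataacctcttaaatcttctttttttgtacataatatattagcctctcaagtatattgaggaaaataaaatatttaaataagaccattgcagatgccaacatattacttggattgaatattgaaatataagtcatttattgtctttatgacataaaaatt
FNR2, plus strand, chr1:6942375-6942624: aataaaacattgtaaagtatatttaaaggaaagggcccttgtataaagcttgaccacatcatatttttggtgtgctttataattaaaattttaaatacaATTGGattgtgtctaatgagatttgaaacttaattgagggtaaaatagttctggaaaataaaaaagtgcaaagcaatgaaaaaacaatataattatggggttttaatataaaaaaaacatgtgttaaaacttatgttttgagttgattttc
PSBQ2, minus strand, chr4:2673244-2673493: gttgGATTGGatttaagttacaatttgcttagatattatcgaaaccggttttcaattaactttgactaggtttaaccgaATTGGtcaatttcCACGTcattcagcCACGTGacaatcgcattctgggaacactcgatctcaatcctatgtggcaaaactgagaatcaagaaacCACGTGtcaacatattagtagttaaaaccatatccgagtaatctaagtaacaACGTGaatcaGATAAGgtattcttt
The PSBY window held none of the motifs, and the FNR2 window held 1 CCAAT, at -151 from the start. The PSBQ2 window held 2 CACGTG, at -145 and -77, and 6 ACGTG counted on both strands, with a GATAAG at -15. It also held 2 CCAAT, at -245 and -171, the first of them within a CCAATC at -246. PSBQ1 held 2 CACGTG and 4 ACGTG. Among the 5 genes with the largest falls, ACGTG was found only in PETE2, and among the 5 with the smallest in PSBS, PSAE1 and PSBQ2. PSAH2 also held 4 ACGTG, and PSBQ1 and PSAH2 had log2 -1.55 and -1.44 with ABA in wild type. The windows of PETE2, PSBQ1 and PSAH2 hold exons of a neighbouring gene. A relation between ACGTG and the size of the fall was not tested.

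Genes that work with the subunits are given from lists taken by function, counted by the same q. Of all loci tested, 30.1% were lower and 26% higher with ABA in wild type. In untreated rbm25-1, 7.2% of all loci were lower and 6.15% higher, and in rbm25-1 with ABA 14.3% and 17.7%. Of 18 tested assembly factors of the photosystems, all were lower and 0 higher with ABA in wild type (0 higher also by the authors' Cuffdiff p before adjustment), from PSB27 (log2 -2.09) to PSA2 (log2 -0.38) in the authors' deposited table. PAM68, for an early assembly factor of photosystem II, fell from 40.9 to 23.1 FPKM in untreated rbm25-1 and from 16.5 to 5.59 FPKM in rbm25-1 with ABA (log2 -0.82 and -1.56 in the authors' deposited tables). LPA19, for a factor that acts on the D1 protein, fell from 33.9 to 19 FPKM and from 9.89 to 3.86 FPKM in the same comparisons. They were the only assembly factors called lower in either comparison, while 1 (HCF173) was higher untreated and 5 with ABA, with HCF244 the highest at log2 0.85 in the authors' deposited table.

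The NDH complex and cyclic electron flow return electrons from ferredoxin to plastoquinone, and of their 20 genes 16 were lower and 1, PGRL1B, higher with ABA in wild type. PNSL3 fell from 22.6 to 1.35 FPKM, with log2 -4.07 in the authors' deposited table, far more than any of the 33 subunit genes. In untreated rbm25-1, 2 were lower and 1 higher, and with ABA 4 were lower and 3 higher, which is near the shares of all loci. PNSL4 fell in both, from 84.5 to 43.6 FPKM and from 23.6 to 10.04 FPKM, and PGR5, a protein of cyclic flow, rose in both, from 108 to 165 FPKM and from 41.3 to 60.9 FPKM. Of 12 regulators of the thylakoid, 9 were lower and 1 higher with ABA in wild type. These included the kinase STN8, from 56.7 to 16.6 FPKM, and PTOX, for the plastid terminal oxidase, which rose from 36.5 to 56.7 FPKM. STN7, the kinase of state transitions, was higher in rbm25-1, at 14.6 against 21.0 FPKM untreated and 8.65 against 15.1 FPKM with ABA, among 3 higher and 0 lower untreated (0 lower also by the authors' Cuffdiff p before adjustment) and 3 higher and 2 lower with ABA.

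Root-type FNR and ferredoxin gave a contrast within the same protein families. Of 6 tested genes for these and other isoforms, 3, all root-type, rose and 1, for a ferredoxin-like protein, fell with ABA in wild type. RFNR1 and RFNR2, for the root-type FNR that passes electrons from NADPH to ferredoxin, rose from 18.2 to 66.8 FPKM and from 27.5 to 59.8 FPKM, with log2 1.88 and 1.12 in the authors' deposited table. FD3, the root-type ferredoxin, rose from 134 to 189 FPKM, while FDC1, for a ferredoxin-like protein, fell from 285 to 67.4 FPKM. In rbm25-1 with ABA, RFNR1 stood at 98.6 FPKM, against 66.8 FPKM in wild type, and RFNR2 at 74.4 FPKM, against 59.8 FPKM, with 2 higher and 1 lower in the list, and 0 were called untreated (1 higher by the authors' Cuffdiff p before adjustment).

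Of 16 light and plastid regulators, 12 were lower and 1 higher with ABA in wild type, led by the GATA factors CGA1, from 11.2 to 1.03 FPKM, and GNC, from 16.6 to 2.72 FPKM. In untreated rbm25-1 CGA1 was lower (log2 -0.51) and SIG1, a sigma factor of the plastid polymerase, higher (log2 0.53) in the authors' deposited table. With ABA 6 were higher and 0 lower (0 lower also by the authors' Cuffdiff p before adjustment), with GUN1, of plastid signalling, at 55.4 FPKM in wild type and 81.1 FPKM in rbm25-1. Antenna and carbon fixation genes had counts in the same directions. As in all these lists, the calls in untreated rbm25-1 rest on the authors' adjustment across several comparisons. They were not adjusted again within that comparison alone, where 0 of the 8 member calls passed. Of 18 tested antenna genes, 16 were lower with ABA in wild type, 9 higher in untreated rbm25-1, and 10 higher and 1 lower in rbm25-1 with ABA. Of 17 Calvin cycle genes the counts were 16 lower and 1 higher, the latter PNAD-MDH, for a plastid malate dehydrogenase that is not an enzyme of the cycle, then 5 higher and 1 lower, then 12 higher and 1 lower. At the extremes among the genes called, LHCA6 had log2 -2.76 and RBCS1B -5.67 with ABA in wild type, LHCB1.1 2.42 and FBA1 1.05 in untreated rbm25-1, and LHCB2.1 1.25 and FBA1 1.33 in rbm25-1 with ABA, in the authors' deposited tables. LHCB1.1, LHCB2.1 and RBCS1B each belong to a family of several copies. The likeness of these copies was not read, so that shared reads may enter their values. Of 32 plastid-encoded subunit genes, 24 lay in merged loci and 3 to 5 had a tested locus of their own, with 0 called and 0 by the authors' Cuffdiff p before adjustment, so that the plastid-encoded side of the complexes could not be compared.

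Some members share their place with other genes, which limits what their values hold. Besides PSBP1, 7 members lie in a deposited locus that overlaps other tested genes, with PETE2 in a locus of 28154 bases that holds 5 others. In the annotation 9 members overlap a gene on the other strand and 3 a gene on the same strand, and whether reads were counted by strand is not given in the sources used here.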

How the data were processed

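Polyadenylated RNA of 12 samples (4 groups of 3) was sequenced. Per the submitters' processing notes, the programs were Trimmomatic 0.32, TopHat2 2.0.13, Cufflinks 2.2.1 and Cuffdiff, with the build TAIR10; neither settings nor strandedness is given in the sources used here. The authors deposited 3 gene tables and 3 splicing tables, each with 1 value per group. Per the file headers, gene tables hold the authors' FPKM, the log2 fold change (no pseudocount), the p-value and the q-value. Any 2 loci with the same deposited p share the same q, across the gene tables too. Splicing tables hold, per the file headers, PSI in percent, its signed difference as a score in points, and an unadjusted p; the program behind them is not given in the sources used here.

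Members and lists were chosen with earlier results of these data known. Members were matched by identifier in gene tables, PSBP1 within a merged locus, and by identical identifier in splicing tables; 4 events per table that join a member with another gene lay outside the member and were left out, as were 28 to 33 damaged events per table. Calls used the authors' q under 0.05. Splicing p-values were adjusted by Benjamini-Hochberg within each table. Ratios, shares, medians and the response of rbm25-1 were computed from deposited FPKM with Python 3.11.15, pandas 2.3.3 and numpy 2.4.6; the scripts were tested on simulated data. Gene models, promoters and motifs came from the RefSeq annotation of TAIR10.1, in which 94.9% to 95.7% of the deposited retained introns have GT-AG ends. All 33 members are named; in each comparison the 5 lowest and 5 highest log2 values, both copies of each pair, and in other lists mainly the lowest and highest genes called are described. Alternatives were other adjustments, a 2-fold limit, a minimum of 10 FPKM, single-gene loci, centring on the median or on 10 length and 10 GC bins, and a pseudocount of 1 FPKM. Of the list genes, 5 whose names the reference does not carry were left out.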

Additional observations from a re-analysis of the deposited data

Results flagged for a closer look

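For 3 of the 33 genes the difference between rbm25-1 and wild type had opposite signs without and with ABA and passed the authors' q with ABA. The log2 difference with ABA minus that without was -0.83 for FNR2, -0.79 for PSAN and 0.55 for FD2. FNR2 went from 0.13 (q = 0.422) to -0.71 (q = 0.000132), PSAN from 0.26 (q = 0.121) to -0.52 (q = 0.000376) and FD2 from -0.02 (q = 0.891) to 0.53 (q = 0.000132) in the authors' deposited tables. The difference between conditions was not tested, since each group has 1 value.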

How the results depend on the processing

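No paired analysis was possible because the tables hold 1 pooled value per group, and for the same reason no replicate could be left out. The 32 falls with ABA in wild type stayed between 25 and 32 under every alternative tried, and their median log2 of -1.24 was -1.05 after centring on length and GC. The 8 members higher in untreated rbm25-1 were 0 with the adjustment within the table, 0 at 2-fold, and 0 with the p-values adjusted again among loci with a mean of at least 10 FPKM, which all 33 genes exceed. In rbm25-1 with ABA the 14 higher and 2 lower members were 0 and 0 at 2-fold, and 11 and 2 with the adjustment within the table or among those loci. The medians of 0.15 and 0.29 lay between 0.14 and 0.20 and between 0.26 and 0.29 under the alternatives tried, and that of the rbm25-1 response was -1.23 with and without a pseudocount. Splicing events of members went from 0 to 1 in untreated rbm25-1 with an unadjusted p, and to 0 with a 10-point minimum. The cause of these changes was not tested, apart from the 2-fold and 10-point minimums, which remove calls by construction. Depth is unknown, so whether further members differed below the calls cannot be said.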
